A study of Mus musculus with 30 samples.

Results

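In this study 13 pools of mice had an RNA-seq library of the amygdala and another of trunk blood, and for these pools the values of the same gene in brain and in blood were set side by side. The pools were found by the pool number that the labels of a library carry. In all, 13 of 17 pools had both tissues, which is 26 of 30 libraries, while 3 pools had only an amygdala library and 1 only a blood library. They are 4 homecage pools (HC, pools 19, 20, 23 and 24), 5 pools that had auditory fear conditioning (FC, pools 7, 8, 9, 10 and 12) and 4 pools that had immobilization a week before the conditioning (Immo+FC, pools 1, 2, 3 and 4), and values below are always given in this order of pools. All mice were C57BL/6J males of 2 to 3 months. FC and Immo+FC mice were killed 2 h after conditioning, the immobilization lasted 2 h, and HC mice had neither. A library holds the RNA of 2 mice of 1 group, pooled, so no value belongs to a single animal. The methods of the study describe punches and blood pooled over 2 mice of a group, and that a shared number marks the same 2 mice was read from the labels. None of the 3 groups had immobilization alone.

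The amygdala is the brain region in which the pairing of a tone with a shock is learned, and conditioning is followed there by a wave of immediate early genes. Blood carries cells that answer the same stress hormones. Glucocorticoids reach both compartments through the circulation and switch on such genes as Fkbp5, Tsc22d3 and the metallothioneins, and they also release neutrophils from the bone marrow. A gene whose blood value moves with its brain value between animals treated alike is what a blood marker of the brain would need, and this differs from a gene whose group mean moves in both tissues. The comparison below therefore removed the mean of each group from log2(FPKM + 0.1) in each tissue and asked whether what was left, the deviation of a pool from its group, was shared by its 2 libraries. FPKM is a read count scaled for transcript length and depth, and 9129 genes were used whose mean reached 1 FPKM in amygdala and in blood.

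Some libraries stood apart. Amygdala libraries held 23148078 to 31366290 sequences, and blood libraries held 9081977 to 25892322, with the lowest in HC pool 24. Uniquely mapped reads were 91.33 to 92.3% in amygdala and 61.15 to 72.59% in blood. In blood of HC pools 23 and 24 the summed FPKM of 10 erythroid entries was 132200 and 69820, against 12270 to 29440 in the other pools. That sum came almost wholly from Hbb-bt, because Hba-a1, Hbb-b1 and Alas2 were listed at 0 in every blood library, which may be failed estimates. Neutrophil markers in blood summed to 4529 to 29880 FPKM in HC, 8535 to 21120 in FC and 14730 to 44720 in Immo+FC. The choroid plexus markers in amygdala ranged from 29.99 to 1208 FPKM and the striatal markers from 165.7 to 547 FPKM, and the part of dissection in these values was not tested. Neuron markers were at 3194 to 3782 FPKM in amygdala, and B cell and natural killer cell markers were there below 0.5 FPKM in every pool. In blood the neuron list summed to 2132 to 4082 FPKM, nearly all of it from Nrgn, while Snap25 and the other neuron genes were low there. Fewer cells of a type and less RNA per cell cannot be told apart in such bulk samples.

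Taken over all genes, the correlations of the deviations of the 2 tissues were on average slightly above 0, and with all pools the test did not pass 0.05. The correlation of a gene over the 13 pools had a median of 0.0645 and a mean of 0.0666, with quartiles of -0.153 and 0.295, and 5292 genes (58.0%) had a value above 0. When blood pools were re-matched to amygdala pools inside groups in all 69120 ways, the mean ranged from -0.112 to 0.113, and the exact permutation test of the true matching gave a two-sided p of 0.0632. The mean was 0.0149 in HC alone (exact permutation p = 0.667), 0.0456 in FC alone (p = 0.517) and 0.119 in Immo+FC alone (p = 0.208), where 24, 120 and 24 re-matchings allow no p below 0.0417, 0.00833 and 0.0417. The exact permutation test passed 0.05 without HC pool 24 (mean 0.0796, p = 0.0456), FC pool 9 (0.0810, p = 0.0156) or FC pool 12 (0.0750, p = 0.0351), and did not pass without any of the other pools. The exact permutation test also passed after removal of the first principal component of each tissue (0.0812, p = 9.98e-04) and with the uniquely mapped percent as a covariate (0.0942, p = 0.00171).

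The same comparison can be read pool by pool. The amygdala profile of a pool, meaning its scaled deviations over all 9129 genes, was correlated over genes with the blood profile of each pool of its group, as a description since genes are not independent. For 5 of 13 pools its own blood was the closest, namely HC pool 19, FC pools 7 and 10 and Immo+FC pools 3 and 4. The values of these own pairs were 0.111, 0.257, 0.149, 0.181 and 0.140. Immo+FC pool 1 had 0.153 with its own blood and 0.187 with that of pool 2. HC pools 23 and 24, whose blood stood apart in Hbb-bt, had -0.0200 and -0.0406 with their own blood. The highest value between different pools of the same group was 0.256, for amygdala of FC pool 9 and blood of FC pool 12, and across groups amygdala of Immo+FC pool 1 and blood of FC pool 12 reached 0.417. In a random order 3 of 13 pools would have their own blood first, 1 in each group. Own values were above 0 in 8 of 13 pools.

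**Figure D1:**
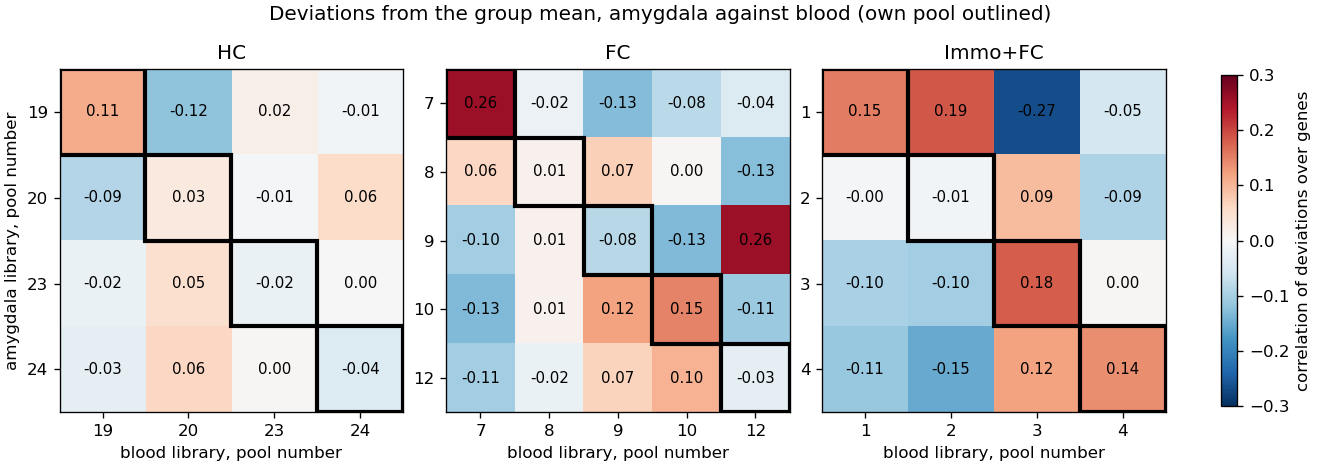
Correlation over 9129 genes of the deviations from the group mean, with amygdala libraries in rows and blood libraries in columns, 1 panel per group and the own pool outlined. Own values run from -0.0841 in FC pool 9 to 0.257 in FC pool 7, and the own pair is the highest of its row in 5 of 13 pools.

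Gene by gene, no gene passed the test of the slope of blood on amygdala. In limma with Benjamini-Hochberg adjustment over 9129 genes 0 genes were called (0%), and the smallest adjusted p was 0.778. At an unadjusted p under 0.05 there were 350 genes with a positive slope (3.83%) and 135 with a negative slope (1.48%), 485 in all or 5.31% of genes. Ordinary least squares, ranks of the deviations and the slope of amygdala on blood also called 0 genes. Correlations reached 0.893 and -0.873, with 129 genes above 0.7 and 37 below -0.7. Of the 485 genes, 83 stayed under an unadjusted p of 0.05 when any 1 pool was left out, 63 of them positive and 20 negative. The share of 5.31% is close to the threshold itself. Fits with 1 pool left out share most of their pools, so the 83 genes are no replicated set. Every gene value below is therefore a description of these pools, with its exact permutation p before any adjustment, and the adjusted p of the slope was at least 0.778 for every gene. Many genes named from a list, such as Errfi1 and Hsp90b1, were picked because their slope p in these same pools was among the smallest of the list. The permutation p of genes picked in this way is no separate test. Counts for gene lists use limma's unadjusted p, which can lie on the other side of 0.05 from the exact permutation p given beside a gene. With 1 pool left out the median correlation took both signs for the glucocorticoid, clock, interferon, heat shock, immediate early and oxidative phosphorylation lists. It also did so for the cholesterol synthesis genes, the nuclear-retained noncoding RNAs and the genes that the study names.

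The small size of amygdala deviations bears on how these values read. A typical gene had an SD between pools of a group of 0.110 on the log2 scale in amygdala and of 0.235 in blood, and blood was the wider tissue for 93.6% of genes. In 4 equal classes of genes, from the narrowest spread in amygdala to the widest, the median correlation was 0.0582, 0.0866, 0.0802 and 0.0358. In 4 classes by the spread in blood it was 0.0876, 0.0986, 0.0658 and 0.0106. Among entries with no value of 0, the 5 of widest spread in amygdala were Ttr, Aqp1 and 3 that join the symbol of a gene with that of a small RNA. Mt1 and Cxcl12 were among those of blood.

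**Figure D2:**
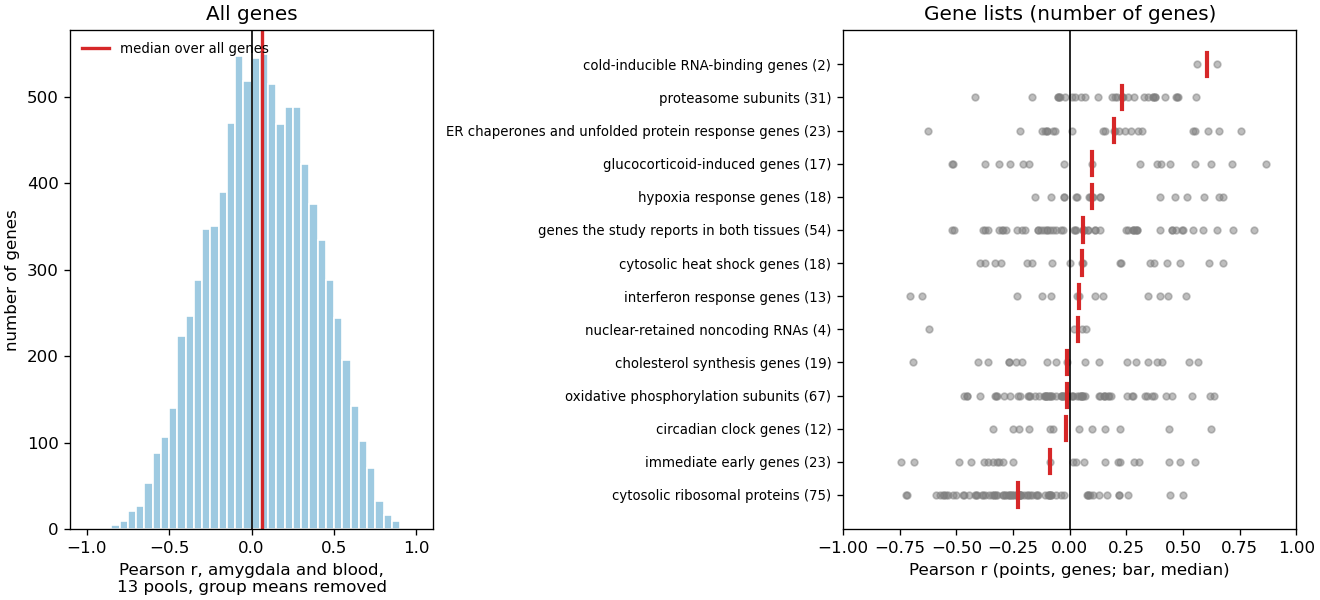
Left, number of genes by Pearson r of amygdala and blood over 13 pools after removal of group means, with the median of 0.0645 as a red line. Right, r of each gene of 14 lists as points with the list's median as a red bar, from 0.607 for the 2 cold-inducible genes to -0.229 for 75 ribosomal protein genes.

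Stress hormone targets were the first group of interest, and 4 of 17 glucocorticoid-induced genes, Errfi1, Tgm2, Mt1 and Mt2, had an unadjusted limma p under 0.05, all with a positive slope, while 0 of 17 were called. Over all genes 5.31% had such a p, 3.83% with a positive slope. Mt1 and Mt2 did not pass the exact permutation test. The median correlation of the list was 0.10, with -0.0848 without Immo+FC pool 4 and 0.227 without HC pool 24, and its members ran from -0.520 to 0.866. Errfi1, a feedback inhibitor of the EGF receptor, had the highest. Its amygdala values were 6.41, 6.21, 6.43 and 6.81 FPKM in HC, 7.04, 6.79, 6.55, 6.6 and 6.57 in FC, and 6.33, 6.23, 6.59 and 6.41 in Immo+FC. Its blood values were 0.882, 0.78, 1.49 and 2.44, then 1.54, 1.25, 0.712, 0.939 and 0.79, and then 1.4, 1.31, 1.55 and 1.15 FPKM. In each group the pool highest in amygdala, pools 24, 7 and 3, was also highest in blood, although the groups overlapped and the amygdala deviations were only a few percent of the level. The correlation was 0.866 (exact permutation p = 6.51e-04), rho was 0.780 (p = 0.00427), and without pools 24 and 7, the 2 farthest in amygdala, r was 0.641.

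The metallothioneins Mt1 and Mt2, small proteins that bind zinc and copper, had the widest spread of the list in blood, with SDs of 1.55 and 1.5 on the log2 scale. Both lie on chromosome 8 of GRCm38 (mm10), Mt2 at 94172664 to 94173568 and Mt1 at 94179082 to 94180327, and both are protein coding. Their transcription answers metals through the metal response element, whose core reads TGCACNC or TGCGCNC. The 250 bases before the start of Mt2 in RefSeq (GRCm38.p6, chr8:94172368-94172617, plus strand) are shown because Mt2 had the larger shared deviation of the pair, with matches to the core on either strand in capitals:
Mt2: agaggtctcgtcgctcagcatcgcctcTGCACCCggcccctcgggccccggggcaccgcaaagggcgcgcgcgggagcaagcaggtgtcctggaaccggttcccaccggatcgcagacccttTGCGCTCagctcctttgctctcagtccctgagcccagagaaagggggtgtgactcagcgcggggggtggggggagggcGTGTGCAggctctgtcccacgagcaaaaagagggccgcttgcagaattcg
The core was found at 3 places that do not overlap, which 1.26% of 32851 such windows reach, while 21.4% hold at least 1. A match describes letters and was not tested as a binding site.

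Mt2 in amygdala was at 124, 95.5, 105 and 92.9 FPKM in HC, 115, 85.3, 111, 93.3 and 112 in FC, and 152, 99.6, 98.1 and 89.2 in Immo+FC. In blood it was at 34.7, 15.3, 15.5 and 29.3, then 23.7, 14.6, 8.54, 2.19 and 5.64, and then 89.4, 7.27, 4.35 and 2.85 FPKM. Pool 1 was the highest of all pools in both tissues, and HC pool 19 and FC pool 7 led their groups in both. The correlation was 0.716 (exact permutation p = 0.0532) and rho 0.511 (p = 0.120). It fell to 0.318 without pool 1. For Mt1, at 282 FPKM in amygdala and 258 FPKM in blood of pool 1 against 178 to 242 and 5.7 to 91.6 in the other pools, r was 0.554 (p = 0.206), rho was 0.264 (p = 0.465) and r without pool 1 was 0.0427. The relation of Mt1 rests on that pool.

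Other hormone targets had their own patterns. Tgm2, a transglutaminase, had r = 0.621 (exact permutation p = 0.0342) and rho = 0.626 (p = 0.0356), and r was 0.599 without pools 7 and 19. Sgk1, a kinase that controls ion channels, had r = 0.442 (p = 0.0289) and rho = 0.621 (p = 0.0174), and without pools 10 and 23 r was 0.682. In the weakest of the other settings r of Sgk1 was 0.178, and the unadjusted limma p of its slope was 0.158. The best known targets did not follow this sign. Fkbp5, a co-chaperone of the glucocorticoid receptor, had r = -0.374 (p = 0.209) and Tsc22d3, also called GILZ, had r = -0.513 (p = 0.0766). Clock genes that share the hormone's daily rhythm had a median of -0.0172 over 12 genes, with Per1 at 0.10, Dbp at -0.179 and Csnk1e, a kinase of the clock proteins, at 0.624 (exact permutation p = 0.0749). Per2 and Nr1d1 did not reach the minimum level in both tissues.

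Cirbp and Rbm3, RNA-binding proteins that rise when body temperature falls, were, of the 14 lists that are not cell markers, the list with the highest median correlation, 0.607, though with only 2 members, of which 0 were called. Rbm3 was at 27.9, 29.9, 38.1 and 30 FPKM in HC amygdala, 25.2, 24.9, 29, 23.1 and 31.7 in FC, and 19.3, 18.1, 23.1 and 25.7 in Immo+FC. Its blood values were 160, 162, 200 and 107, then 103, 101, 123, 109 and 129, and then 58.8, 80.2, 81.8 and 100 FPKM. Pools 23, 12 and 4 led their groups in both tissues. The correlation was 0.651 (exact permutation p = 0.0372), rho was 0.648 (p = 0.0325), and r was 0.535 without pool 23 and 0.354 without pools 23 and 4.

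Cirbp showed a similar but looser relation, with r = 0.563 (exact permutation p = 0.105) and rho = 0.582 (p = 0.0841). It stood at 47.5, 42.1, 47.2 and 36.1 FPKM in HC amygdala against 109, 107, 61.5 and 51.4 in HC blood. In FC the values were 35.8, 30.9, 34.9, 32.2 and 38 in amygdala and 73, 65.4, 85.6, 80.6 and 99.7 in blood. In Immo+FC they were 29.8, 23.9, 30.4 and 26.9, and 43, 41.4, 58.5 and 50.5. Pool 24 was lowest of HC and pool 2 lowest of Immo+FC in both tissues, and r was 0.316 without pool 24 and 0.196 without pools 24 and 2. Apart from these deviations, Immo+FC lay below HC in amygdala for both genes, by a log2 difference of -0.64 ± 0.10 (SE) for Cirbp and -0.55 ± 0.12 for Rbm3 (limma adjusted p = 0.00728 and 0.0405). In blood the differences were -0.70 ± 0.23 and -0.96 ± 0.19, with adjusted p of 0.145 and 0.0646.

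Chaperones were read in 2 lists. In the ER list, which covers chaperones and the unfolded protein response, 15 of 23 genes had a positive correlation, against 58.0% of all genes. The median was 0.197, and it was 0.0774 without Immo+FC pool 3. An unadjusted limma p under 0.05 was held by 5.31% of all genes and by 2 of these 23, both positive. These were Hsp90b1, the ER form of HSP90, and Ddit3, which encodes the stress factor CHOP. Hsp90b1 was at 94.4, 113, 102 and 102 FPKM in HC amygdala, 110, 134, 126, 119 and 112 in FC, and 124, 133, 120 and 130 in Immo+FC, and at 65.7, 83.6, 69.5 and 77.1, then 79.4, 85, 84, 88 and 77.5, and then 79.2, 95.1, 74.6 and 85.4 FPKM in blood. The lowest and the highest pool of HC and of Immo+FC, pools 19 and 20 and pools 3 and 2, were the same in both tissues. Its correlation was 0.756 (exact permutation p = 0.00207), rho was 0.698 (p = 0.00965), and without pools 8 and 20 r was 0.778. For Ddit3 r was 0.660 (p = 0.0162) and rho 0.725 (p = 0.00942), with 0.842 left without pools 2 and 9. Hspa5, the main ER chaperone, had r = 0.0118 (p = 0.972).

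The 18 cytosolic heat shock genes had a median of 0.0549, with 11 positive and 2, Hspa8 and Hspa4l, at an unadjusted limma p under 0.05. Over all genes 58.0% were positive and 5.31% were at such a p. Hspa8, the constitutive HSC70, had r = 0.614 (exact permutation p = 0.0397) and rho = 0.549 (p = 0.0749), and r = 0.542 without pools 8 and 12. Hspa4l had r = 0.676 (p = 0.0638). Hsph1 was at 0.372 (exact permutation p = 0.225).

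Energy genes were mixed. The 18 hypoxia response genes had a median correlation of 0.0995 and 14 positive members, where 58.0% of all genes were positive. Slc2a1, the glucose transporter GLUT1 of the blood-brain barrier, had r = 0.677 (exact permutation p = 0.202) and rho = 0.742 (p = 0.0939). It was at 31.5, 28.9, 25 and 22.6 FPKM in Immo+FC amygdala and at 28.8, 31.9, 17.5 and 19.3 FPKM in Immo+FC blood, so that pools 1 and 2 lay above pools 3 and 4 in both. Ldha, lactate dehydrogenase A, had r = 0.657 (p = 0.0376) and rho = 0.665 (p = 0.0267), but -0.309 after quantile normalization, so its sign depends on how libraries are scaled. The 67 subunits of oxidative phosphorylation had a median of -0.0139 with 31 positive.

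Of 75 cytosolic ribosomal protein genes only 12 had a positive correlation and the median was -0.229, while 24 of 31 proteasome subunits were positive with a median of 0.230. Over all genes 58.0% were positive. Neither list had a gene called or at an unadjusted limma p under 0.05. Rps16, of the small ribosomal subunit, had r = -0.721 (exact permutation p = 0.00761) and rho = -0.714 (p = 0.0205). It was at 153, 125, 131 and 115 FPKM in Immo+FC amygdala and at 1660, 1850, 2000 and 2130 FPKM in Immo+FC blood, with pool 1 highest in the one and lowest in the other. The ribosomal median was -0.0418 without pool 1, and over the other settings it ran from -0.439, without pools 23 and 24, to 0.0439, after removal of the first principal component, so its sign depended on the setting. The proteasome median ran from 0.122 to 0.313 over the settings tried.

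Immediate early genes, which neurons switch on within minutes of activity and leukocytes on activation, had a median of -0.0867 over 23 genes. Of the 3 members at an unadjusted limma p under 0.05, which 5.31% of all genes had, Junb and Fosb were negative and Jun was positive. Junb was at 17.1, 16.7, 22.6 and 34 FPKM in HC amygdala, 23.1, 21.1, 18.4, 19.6 and 17.9 in FC, and 28.3, 19.7, 21.8 and 20 in Immo+FC. In blood it was at 237, 275, 151 and 93.9, then 116, 152, 216, 257 and 160, and then 180, 203, 121 and 175 FPKM. HC pools 23 and 24 were high in amygdala and low in blood. Its r was -0.746 (exact permutation p = 0.0175), rho was -0.670 (p = 0.0516), and r was -0.514 without pool 24. Fosb had r = -0.686 (p = 0.0495) and Jun r = 0.551 (p = 0.0664). The mean of Fosb in Immo+FC blood, 0.37 FPKM, lay below the minimum, which it reached over all pools.

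Interferon genes spanned both signs. The 13 genes had a median of 0.0390. An unadjusted limma p under 0.05, which 5.31% of all genes had, was held by 2 members, Isg15 and Ifi27, both negative. Isg15, an ubiquitin-like protein induced by interferon, was at 1.68, 2.13, 1.34 and 1.62 FPKM in HC amygdala, 2.42, 1.75, 3.07, 2.46 and 1.8 in FC, and 2.32, 2.41, 2.24 and 3.18 in Immo+FC. In blood it was at 922, 778, 7540 and 2020, then 2130, 2340, 1150, 1840 and 1970, and then 1710, 2030, 1720 and 1370 FPKM. In each group the pool highest in amygdala, pools 20, 9 and 4, was the lowest in blood. Its r was -0.654 (exact permutation p = 0.00150), rho was -0.725 (p = 0.00862), and r was -0.479 without pools 9 and 20. In the weakest of the other settings its r was -0.187. Ifi27 had r = -0.704 (p = 0.0407). Igtp, an interferon-induced GTPase, went the other way with r = 0.512 (p = 0.0164) and rho = 0.560 (p = 0.00909). Irf7, which drives the interferon response, was below the minimum in amygdala, at 0.45 to 1.26 FPKM, and reached 540 FPKM in blood of HC pool 23.

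**Figure D3:**
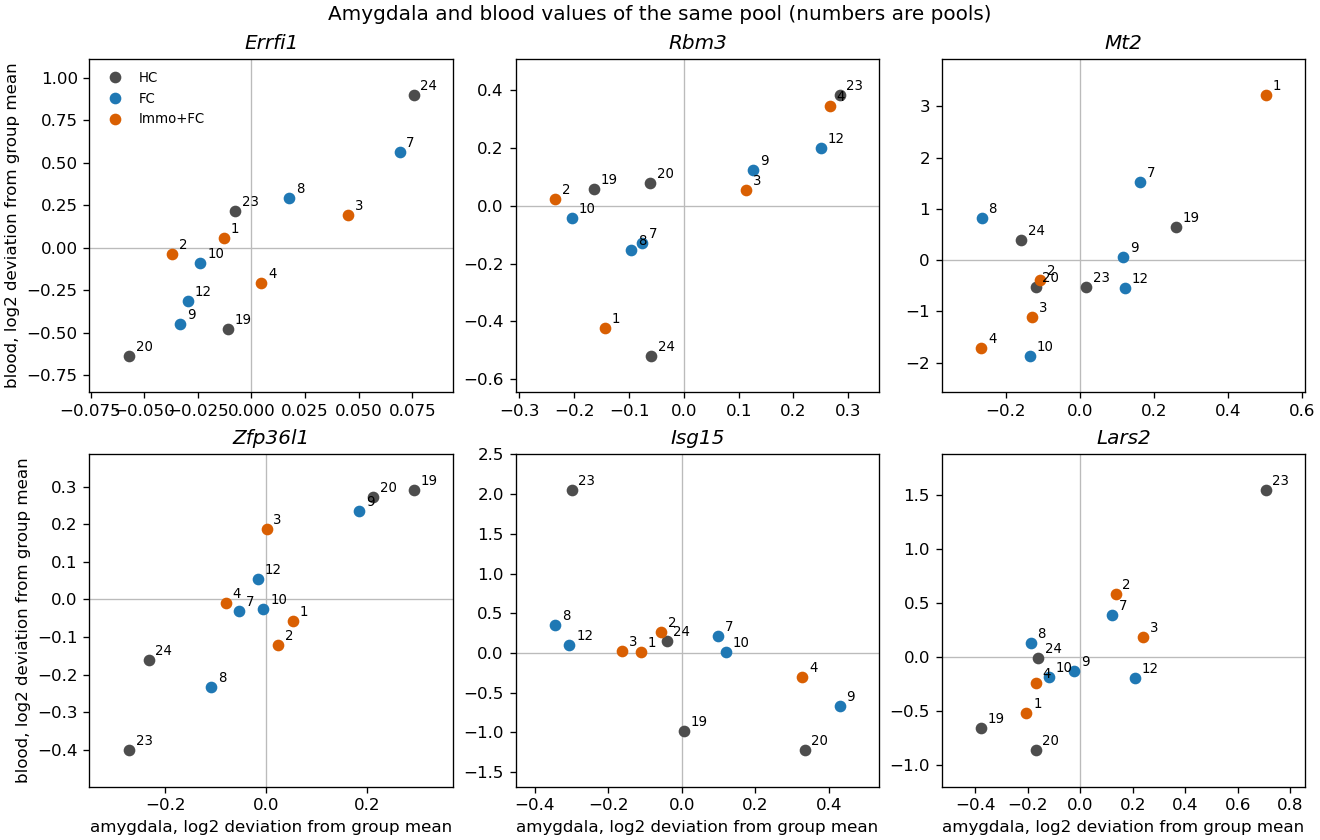
Deviation of each pool from its group mean on the log2(FPKM + 0.1) scale, amygdala on the horizontal and blood on the vertical axis, for 6 genes, with points coloured by group and numbered by pool. Errfi1, Rbm3 and Zfp36l1 rise along the diagonal, Isg15 falls, and in Mt2 and Lars2 pools 1 and 23 lie far from the rest.

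Some of the closest relations were outside these lists. These genes, positive and negative, were likewise named for a small p of the slope in the same pools, so their permutation p is no separate test. Zfp36l1, which marks AU-rich mRNAs for decay, had r = 0.878 (exact permutation p = 0.0135) and rho = 0.775 (p = 0.0541). It was at 7.13, 6.74, 4.79 and 4.93 FPKM in HC amygdala and at 61.4, 60.6, 38 and 44.8 FPKM in HC blood, so that pools 19 and 20 lay above pools 23 and 24 in both tissues. Without pools 19 and 23 r was 0.794, and in the weakest of the other settings it was 0.402. Lars2, the mitochondrial leucyl-tRNA synthetase, had r = 0.851 (p = 0.0204), but it was 0.501 without pool 23. That pool had 107 FPKM in amygdala, where the others had 47 to 69.5, and 14200 FPKM in blood, where the others had 2670 to 7460. Group means of Lars2 in blood, 6200, 5650 and 5200 FPKM, lay above those of Rps16, 2040, 2130 and 1910 FPKM. Whether all reads listed under Lars2 come from its mRNA was not tested. The noncoding RNA A630023P12Rik (chromosome 5, 110514923 to 110525980) had r = 0.782 (p = 2.89e-04) and rho = 0.824 (p = 1.74e-04), and kept 0.859 without pools 24 and 20. Its mean in HC amygdala, 0.748 FPKM, lay below the minimum, which it reached over all pools.

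On the negative side Mpp2, a scaffold protein of synapses, had r = -0.842 (exact permutation p = 0.0102) and rho = -0.753 (p = 0.00964). It was lowest in amygdala of pool 23, at 31.4 FPKM against 35.3 to 40.8, and highest in blood of that pool, at 6.86 FPKM against 0.95 to 2.53. Without pool 23 r was -0.571, without pools 23 and 12 it was -0.346, and in the weakest of the other settings it was -0.315. Immp2l, a peptidase of the mitochondrial inner membrane, had r = -0.817 (p = 0.00651) and rho = -0.857 (p = 0.00207), with -0.801 without pools 3 and 24. In the weakest of the other settings its r was -0.293. Axl, a receptor tyrosine kinase of phagocytes, had r = -0.811 (p = 0.00431).

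A further list holds genes that the study names for both tissues, and since they were picked from these same libraries it is no independent evidence. Of its 54 members above the minimum 31 had a positive correlation, near the 58.0% of all genes, and the median was 0.0594 against 0.0645 for all genes. At an unadjusted limma p under 0.05, which 5.31% of all genes had, there were 3 members, all positive, and 0 were called. Zhx2, a transcriptional repressor, had r = 0.722 (exact permutation p = 0.0367) and rho = 0.742 (p = 0.0133). It was at 3.26, 3.07, 2.34 and 2.09 FPKM in HC amygdala and at 5.6, 6.67, 3.38 and 4.75 FPKM in HC blood, again with pools 19 and 20 above pools 23 and 24, and r was 0.848 without pools 24 and 19. Jhdm1d, a histone demethylase also called Kdm7a, had r = 0.590 (p = 0.0872). Dmxl2, a synaptic vesicle protein, had r = 0.296 (p = 0.449) and -0.0289 without pool 23.

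Lcn2, a secreted protein of neutrophils and reactive glia, did not reach the minimum in amygdala, yet its pools are of interest. In Immo+FC it was at 3.27, 4.04, 0.0575 and 0.169 FPKM in amygdala and at 226, 409, 170 and 147 FPKM in blood, so pools 1 and 2 were high in both. Neutrophil markers summed to 8.859 and 9.268 FPKM in amygdala of these 2 pools against 2.193 to 4.209 in the other 11, and to 34260 and 44720 FPKM in their blood against 4529 to 29880, and the part of these cells in the Lcn2 values was not tested. HC pool 23 and FC pool 12 had 214 and 244 FPKM in blood with only 0.0597 and 0 in amygdala. Over all 13 pools r was 0.166 (exact permutation p = 0.527) and rho 0.404 (p = 0.154), and r was -0.0243 without pool 2. Csf3r, the receptor for the growth factor of neutrophils, had r = 0.534 (p = 0.0962), rho = 0.385 (p = 0.223) and 0.0208 without pools 9 and 19.

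Hemoglobin and choroid plexus genes were also followed, since they mark blood in the brain and tissue beside the amygdala. Hbb-bt, a beta globin, was at 3.31, 5.2, 17.9 and 5.01 FPKM in HC amygdala, 5.02, 6.67, 6.13, 8.03 and 9.23 in FC, and 10.3, 7.5, 6.09 and 3.62 in Immo+FC. In blood it was at 13405, 13300, 128031 and 68600, then 19300, 24900, 11700, 18800 and 19400, and then 18700, 28500, 15500 and 13700 FPKM. Pool 23 was the highest in both. Its r was 0.694 (exact permutation p = 0.0351), rho was 0.505 (p = 0.139), and r was 0.337 without pool 23. Ttr, the thyroxine carrier made by the choroid plexus, was at 561, 1030, 1.21 and 0.837 FPKM in HC amygdala, 1.46, 1.54, 83.2, 538 and 351 in FC, and 941, 726, 614 and 109 in Immo+FC. In blood it was at 0.962, 1.58, 9.79 and 14.4, then 1.25, 1.34, 1.05, 0.373 and 1.65, and then 0.705, 0.165, 0.943 and 3.4 FPKM. The 2 HC pools with almost none in amygdala had the most in blood, r was -0.717 (p = 0.0226) and rho -0.720 (p = 0.0301), and r was -0.400 without pools 24 and 23. Malat1, a nuclear noncoding RNA, had r = -0.621 (p = 0.166), which rests on pool 23, since r was 0.0454 without it.

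**Figure D4:**
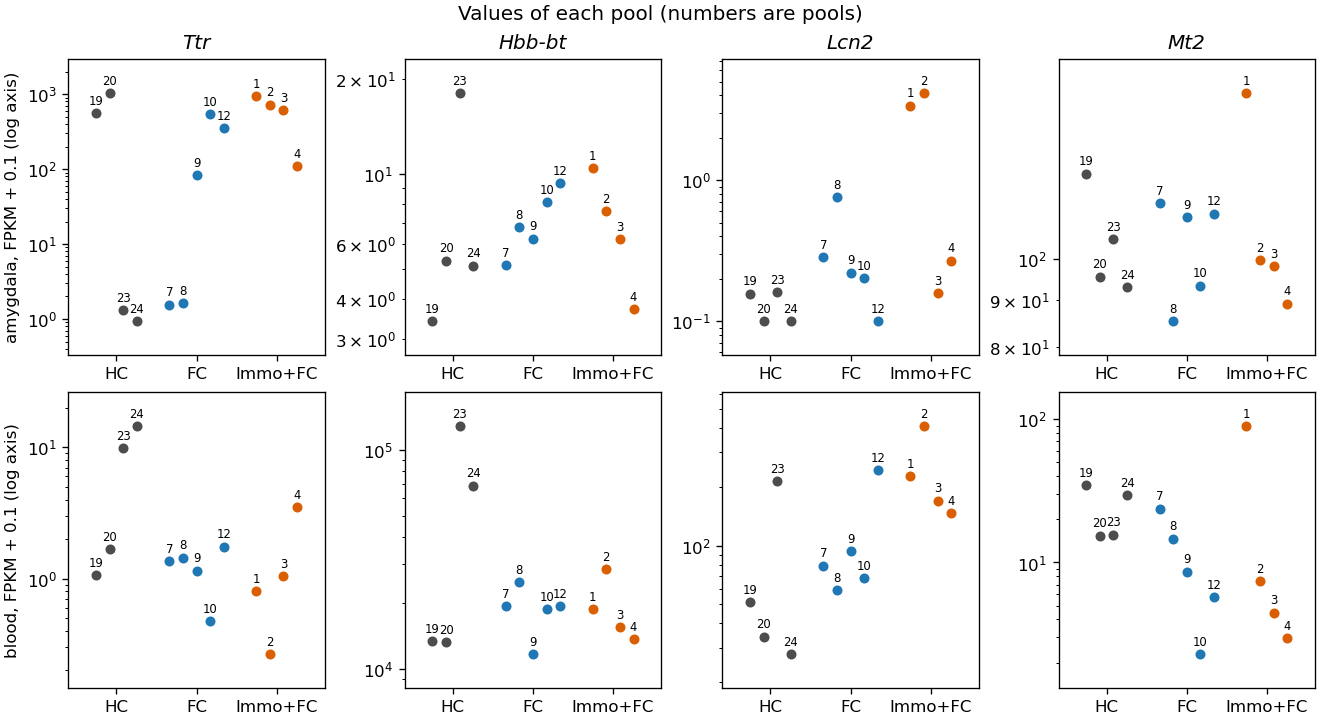
FPKM + 0.1 of Ttr, Hbb-bt, Lcn2 and Mt2 in each pool on log axes, amygdala above and blood below, by group and numbered by pool. Pool 23 is highest for Hbb-bt and pool 1 for Mt2 in both tissues, pools 1 and 2 are highest for Lcn2 in amygdala, and pools 23 and 24 are lowest for Ttr in amygdala and highest in blood.

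The marker genes of brain cells had no called member either. In the 8 neuron markers of the minimum the median was 0.122, with Snap25, a protein of vesicle fusion, at -0.0579, and in blood Snap25 was at 11.7, 3.6, 14.5 and 16.5 FPKM in HC, 1.89, 0.142, 1.17, 0.526 and 4.21 in FC, and 2.06, 1.92, 2.57 and 4.37 in Immo+FC. Mbp and Cnp of oligodendrocytes, which encode proteins of myelin, were at 0.573 and 0.479. Gfap and Aldoc of astrocytes were at -0.208 and -0.112.

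The design also asks whether the group moved the 2 tissues alike. For each pool the blood log2 value minus the amygdala log2 value was taken and the groups were compared in limma with Benjamini-Hochberg adjustment over 9129 genes. A positive difference means that blood rose more, or fell less, than amygdala. In FC against HC 1 gene was called (0.011%) and 954 (10.5%) had an unadjusted p under 0.05. In Immo+FC against FC 1 was called (0.011%) and 1233 (13.5%) had an unadjusted p under 0.05, and in Immo+FC against HC 1 was called (0.011%) and 1366 (15%). The call of the first pair was the same merged entry of Meg3, Mir1906-1 and Mir770, which is listed at 0 in all 5 FC amygdala libraries and at 420 to 650 FPKM in the 8 others, and a 0 here may be a failed estimate. Without entries that hold a 0 the counts were 0, 0 and 7.

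Gpr146, an orphan G protein-coupled receptor (chromosome 5, 139377697 to 139396415), was the call of Immo+FC against HC. In amygdala it was at 3.1, 3.1, 3.57 and 3.65 FPKM in HC, 3, 2.55, 2.73, 3.14 and 3.28 in FC, and 2.84, 3.39, 3.14 and 2.8 in Immo+FC. In blood it was at 9.43, 10.9, 11.2 and 9.42, then 12.2, 14.3, 10.5, 12.5 and 12.7, and then 20.5, 24.4, 17.4 and 18 FPKM. The Immo+FC pools lay above every other pool in blood, and in amygdala the groups overlapped. The neutrophil markers in blood, whose ranges are given above, were also highest in Immo+FC pools 1 and 2, and their part in the result was not tested. The log2 difference was 0.96 ± 0.13 (SE) in blood and -0.14 ± 0.10 in amygdala, and the difference of the 2 was 1.10 ± 0.15 (adjusted p = 0.0445). It was at least 1.02 when any 1 pool was left out, with an adjusted p of 0.0116 to 0.221. Within the pools its deviations were not closely tied, with r = 0.166 (exact permutation p = 0.613).

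Further genes of smallest p in Immo+FC against HC did not pass with all pools. Oscp1 was at 0.205, 0.308, 0.587 and 0.208 FPKM in HC blood and 3.68, 2.92, 1.05 and 1.51 in Immo+FC blood, with 12.9 to 13.9 and 10.6 to 13.3 FPKM in amygdala. It reached the minimum of 1 FPKM in blood only through the conditioned groups, with means of 0.327, 1.38 and 2.29 FPKM in HC, FC and Immo+FC, so these values are a description. The entry of Pdia4, an ER disulfide isomerase, and Mir704 differed in the other direction. Its amygdala values were 11.3, 11.9, 10.2 and 11.6 FPKM in HC and 22, 21.7, 19.8 and 17.4 in Immo+FC, without overlap, and in blood the ranges of 25.4 to 30.5 and 23.4 to 28.5 overlapped. The difference was -0.97 ± 0.15 (adjusted p = 0.0568). Hspa5 had -0.80 ± 0.17 (adjusted p = 0.0979), with 0.85 ± 0.09 in amygdala and 0.05 ± 0.14 in blood.

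**Figure D5:**
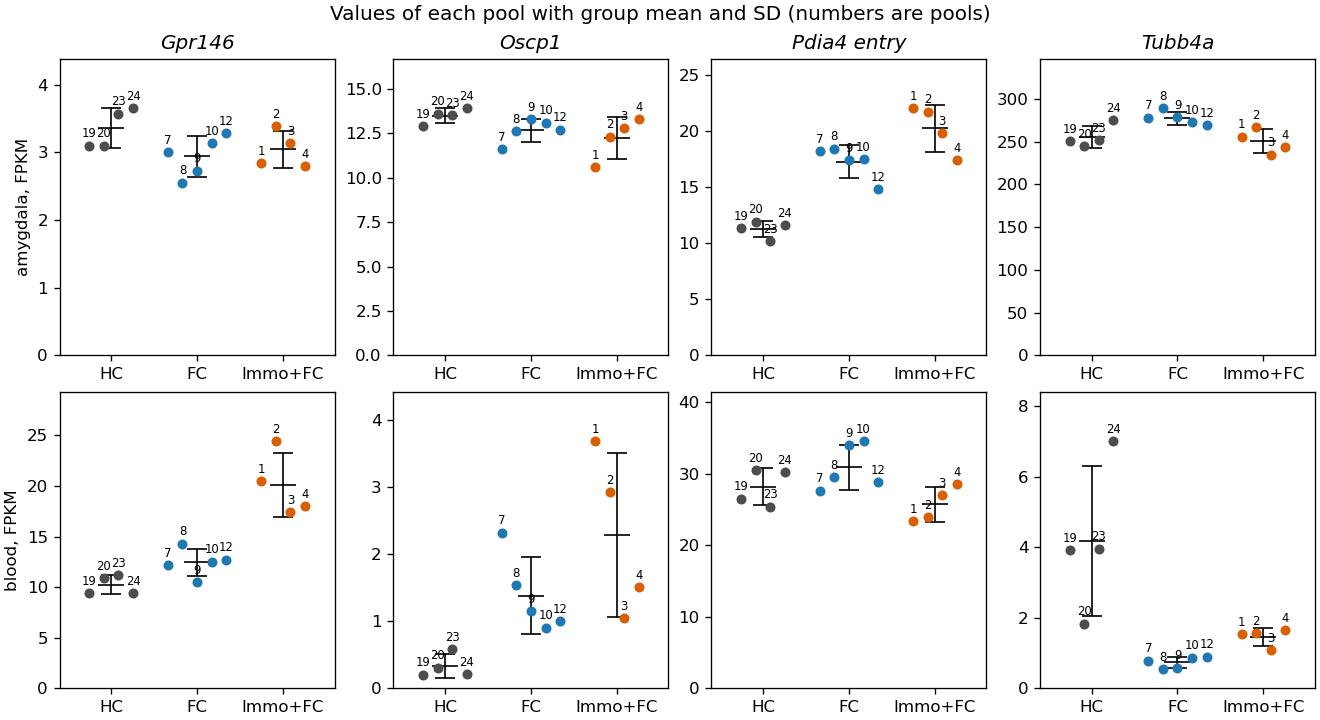
FPKM of Gpr146, Oscp1, the Pdia4 entry and Tubb4a in each pool, amygdala above and blood below, by group with mean and SD as black bars and points numbered by pool. Gpr146 is higher in Immo+FC than in HC blood without overlap, the Pdia4 entry in amygdala, Oscp1 is below 1 FPKM in HC blood, and Tubb4a is highest in HC blood.

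This count rested on single pools, each left out with both of its libraries. Without HC pool 23, the pool with the most Hbb-bt in blood, 169 genes were called in Immo+FC against HC (1.85% of genes), with 112 higher and 57 lower in blood than in amygdala, and 1 and 4 in the other comparisons. The Pdia4 entry then passed, with a difference of -0.97 ± 0.16 (limma adjusted p = 0.0176). The count was 14 without Immo+FC pool 3, 20 without pool 4 and 2 without FC pool 12. It was 0 without any 1 of HC pools 19, 20 and 24, FC pools 7, 9 and 10 or Immo+FC pools 1 and 2. In FC against HC it was 17 without FC pool 12 and 2 without HC pool 20.

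Of 17 glucocorticoid-induced genes 8 had a higher difference in blood than in amygdala in Immo+FC against HC, with a median of -0.00377, and 0 were called. Over all genes 46.2% were higher in blood in that comparison. Tsc22d3 rose in amygdala of Immo+FC against HC by 0.60 ± 0.09 (limma adjusted p = 0.00565), and its blood difference was -0.35 ± 0.23 (adjusted p = 0.485). Fkbp5 rose in amygdala by 0.35 ± 0.06 (adjusted p = 0.0121) and had a blood difference of 1.07 ± 0.24 (adjusted p = 0.0696), with 15.2, 18.1, 8.25 and 8.54 FPKM in Immo+FC blood and 4.77, 4.33, 7.45 and 6.26 in HC blood. The differences between tissues, -0.95 ± 0.28 and 0.72 ± 0.26, had opposite signs and did not pass (adjusted p = 0.157 and 0.215). Over the lists, all 75 ribosomal protein genes had a lower difference in blood than in amygdala in Immo+FC against HC, with a median of -0.30 against -0.03 over all genes, and 0 were called. That median was -0.17 without HC pool 23. Of 31 proteasome subunits 30 had a positive difference in Immo+FC against FC, as did 49.9% of all genes. Their median was 0.13 against a median of -9.53e-04 over all genes, and 0 were called.

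In FC against HC the gene of smallest p without a 0 was Tubb4a. Tubb4a, a brain tubulin, was at 3.92, 1.83, 3.96 and 7 FPKM in HC blood, 0.781, 0.537, 0.583, 0.871 and 0.893 in FC blood and 1.54, 1.57, 1.08 and 1.65 in Immo+FC blood. In amygdala it was at 235 to 289 FPKM. Its difference between tissues was -2.36 ± 0.38 (limma adjusted p = 0.0766). The mean of Tubb4a in FC blood, 0.733 FPKM, lay below the minimum, which it reached over all pools. Snap25 in blood was also highest in HC, as given above, and the part of brain RNA in these blood values was not tested. Tiam2, a Rac exchange factor, had -1.09 ± 0.17 (adjusted p = 0.0766) and was also related within pools, with r = 0.803 (exact permutation p = 0.00460).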

How the data were processed

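Amygdala and blood RNA-seq of 30 libraries was deposited as 1 table of FPKM, of which the 26 libraries of 13 pools with both tissues were used, matched by pool number. Globin transcripts were removed from blood RNA and poly-A RNA was selected. The authors used STAR 2.3 with mm10, and their deposited FPKM come from Cufflinks 2.1.1 and Cuffdiff 2.1.1, run per tissue. The deposited mapping table gave total read counts and the percent mapped by the authors. The table has 23303 entries, 0 columns belong to no sample, and 130 of the 9129 entries used join several genes, so their reads cannot be split. A value of 0 can be a failed estimate, and 71 of the 9129 held one.

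Values were turned into log2(FPKM + 0.1), which understates folds of low genes. Genes needed a mean of at least 1 FPKM in both tissues. Group means were removed per tissue. The slope of blood on amygdala was tested with limma 3.58.1 in R 4.3.3 on 9 residual degrees of freedom, and the mean correlation and named genes with exact permutation of pools inside groups, two-sided. Group differences were fitted in limma to blood minus amygdala per pool, so the pool is the block. The pairing comes from the label numbers and was not tested. Whether pools are separate cages is not stated, so p-values measure the spread between pools. The fits were tested on simulated data. The depth behind an FPKM is not in the table, so no counting interval was given.

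Members and gene lists were chosen with earlier results of these data known. Lists are described by counts and medians. Genes named are the 10 of smallest p in each direction of the slope and up to 3 of smallest slope p per list. Also named are the 10 of smallest p per group difference and the 5 of widest spread per tissue. A fixed set of stress, clock, interferon, heat shock and marker genes was named as well. A list entry counts once if any of its joined symbols is listed. Positions are from GENCODE vM21 and the promoter from RefSeq. Alternatives were other pseudocounts, minimum values, scalings and covariates, ranks and each pool left out. Leaving out pools 23 and 24, or 23 and 1, was chosen after seeing the data. Some genes that meet this rule are not reported here.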

Additional observations from a re-analysis of the deposited data

Results flagged for a closer look

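Of 162 groups of 4 or 5 pools looked at, 20 held a pool far from the others of its group, 6 of them with HC pool 23, where chance alone sets apart about 1 group in 20. That share does not hold for genes named for a small p or a wide spread, since such a choice favours a pool that stands apart. No explanation was tested. Among library sizes these were 24165634 sequences in amygdala of HC pool 19, 9081977 in blood of HC pool 24, 23148078 in amygdala of Immo+FC pool 1 and 25892322 in blood of Immo+FC pool 4. Among summed markers they were the erythroid genes in amygdala of HC pool 23 at 192 FPKM, the neutrophil genes in its blood at 29880, the neuron genes in blood of HC pool 24 at 4082 and of Immo+FC pool 4 at 2132, and the choroid plexus genes in blood of FC pool 12 at 54.95 FPKM.

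Among genes, HC pool 23 stood apart for Lars2 in amygdala at 107 FPKM, Mpp2 in blood at 6.86, Hbb-bt in amygdala at 17.9 and Lcn2 in blood at 214 FPKM. Immo+FC pool 1 stood apart for Mt2 at 152 FPKM in amygdala and 89.4 in blood, for Mt1 at 258 FPKM in blood and for Tgm2 at 11 FPKM in blood. FC pools did so for Zhx2 in blood of pool 9 at 10.1 FPKM, Lcn2 in amygdala of pool 8 at 0.661 and Lcn2 in blood of pool 12 at 244 FPKM.

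In 3 cases the group difference was not the same in blood and amygdala by limma with adjustment over all genes. The Meg3, Mir1906-1 and Mir770 entry differed by 9.67 on the log2 scale in FC against HC and by -11.7 in Immo+FC against FC, with amygdala values listed at 0 in FC. Gpr146 differed by 1.10 in Immo+FC against HC.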

How the results depend on the processing

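The mean correlation of matched pools stayed above 0 in every setting tried, between 0.0480 and 0.0821 with 1 pool left out. Its exact permutation p, 0.0632 with all pools, passed 0.05 with a minimum of 0.1 FPKM (mean 0.0562), quantile normalization (0.0661), the uniquely mapped percent (0.0942) or erythroid and neuron scores (0.0777) as covariates, and the first principal component removed (0.0812), and the cause was not tested. No setting called a gene by its slope. The sign of r turned for Ldha after quantile normalization (-0.309) and, with the first principal component removed, for Mt1 (-0.0406) and Hbb-bt (-0.0515). Apart from single pools left out, r kept its sign but weakened in some setting to -0.293 for Immp2l, -0.187 for Isg15 and -0.234 for Ifi27. It weakened to 0.297 for Hspa8, 0.402 for Zfp36l1, 0.419 for Zhx2 and 0.252 for Lars2. It fell to 0.125 for Mt2, 0.135 for Jhdm1d, 0.178 for Sgk1 and 0.241 for Csf3r. For Slc2a1 and Rbm3 the weakest values were 0.324 and 0.337, and for Mpp2 and Junb -0.315 and -0.329. For Errfi1, A630023P12Rik and Fosb it stayed at 0.701, 0.547 and -0.587 or stronger in 15 such settings. The minimum of 5 FPKM was not among them, since these genes do not reach it.

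Counts of genes whose group difference was not the same in both tissues were 1 in each comparison. In FC against HC they were 3 with a pseudocount of 1, 182 with a minimum of 0.1 FPKM, 0 with a minimum of 5 FPKM or without entries that hold a 0, and 1 to 17 with 1 pool left out. In Immo+FC against FC they were 0 with a minimum of 5 FPKM or without such entries, 2 after quantile normalization, 15 with only the 2 groups fitted and 1 to 4 with 1 pool left out. In Immo+FC against HC they were 5, 4 and 7 with a pseudocount of 1 and minimums of 0.1 and 5 FPKM, 11 after median-ratio scaling or quantile normalization, 7 without entries that hold a 0, 0 with only the 2 groups fitted and 0 to 169 with 1 pool left out. Chosen after seeing the data, leaving out pools 23 and 24 gave 30 in Immo+FC against FC and 39 in Immo+FC against HC, and leaving out pools 23 and 1 gave 19 in the latter. Without the pairing of pools as a block, counts in FC against HC and Immo+FC against HC were 75 and 91 in 26 libraries, and 109 and 143 in 30.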
